A study of Homo sapiens with 2 samples.

Results

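The genes of the AP-1 subunits were examined for accessible chromatin in B2B cells. These were the Jun genes JUN, JUNB and JUND, the Fos genes FOS, FOSB, FOSL1 and FOSL2, and the related genes ATF3, BATF and BATF3, which are 10 of 20007 protein-coding genes in GENCODE. Peaks were read from 100 kb upstream of each gene to 100 kb downstream of it, and regions that held a peak of both replicates are called shared regions. The 10 spans held 62 of the 25366 shared regions of the genome. B2B is BEAS-2B, an immortalized and non-cancerous bronchial epithelial line, profiled as wild-type cells without treatment. ATAC-seq, in which the Tn5 transposase cuts accessible DNA, was performed on 2 replicates. The series describes them as biological replicates without saying whether they were separate cultures, and they are 1 cell line in 1 condition, which leaves no contrast between conditions to test.

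AP-1 is a dimer of basic leucine zipper (bZIP) proteins. Jun proteins pair with each other or with a Fos protein, and the dimer binds the 7-base site TGACTCA, which reads TGAGTCA on the other strand. Several of the genes are immediate early genes, which growth factors and stress induce within minutes through MAP kinases, the serum response factor SRF and bound bZIP factors, and AP-1 is known to act on some of its own genes. ATF3 is a stress-induced factor that can repress transcription, and BATF and BATF3 are best known from lymphocytes and dendritic cells.

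The 2 lists held 28735 and 36162 peaks on the main chromosomes. Peaks were reported down to 16 fragments at the summit in replicate 1 and 13 in replicate 2, over a commonest background of 4.77 and 3.41 fragments. The 16 and 13 fragments are the weakest summits listed and not fixed limits, since each call also depended on the background around the site. The lack of a peak therefore does not show closed chromatin. Over all protein-coding genes 52.3% had a peak within 1 kb of the transcription start site (TSS) in both replicates. Of 12 epithelial marker genes only KRT18, a keratin of simple epithelia, had peaks at its promoter in replicates 1 and 2. CDH1, EPCAM and KRT5 were among the 11 that did not. Of 12 mesenchymal markers 9 had a promoter peak in both replicates, including VIM and FN1. COL1A2 and COL3A1 had none, and THY1 had one in replicate 2 only. The promoters of most epithelial markers thus had no peak in a line labelled epithelial.

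The distal regions that carried an AP-1 site are the sequences on which the results below turn, and 8 of them are shown here. Distal means more than 1 kb from the TSS of any protein-coding gene. Sequences are the plus strand of hg38, read 5′ to 3′, and the capitals mark TGACTCA or TGAGTCA. In the ATF3 region 49.7 kb upstream the capitals also mark TGACGTCA, the cyclic AMP response element (CRE) that ATF and CREB dimers bind.
JUN 65.0 kb upstream, chr1:58848978-58849024: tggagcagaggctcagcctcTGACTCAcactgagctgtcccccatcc
JUN 56.4 kb downstream, chr1:58727553-58727599: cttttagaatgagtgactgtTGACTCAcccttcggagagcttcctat
FOSB 12.1 kb upstream, chr19:45455874-45455920: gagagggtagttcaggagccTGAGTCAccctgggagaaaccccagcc
FOSL2 16.7 kb downstream, chr2:28409445-28409491: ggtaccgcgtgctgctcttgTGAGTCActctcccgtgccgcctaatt
ATF3 122.7 kb upstream, chr1:212486089-212486135: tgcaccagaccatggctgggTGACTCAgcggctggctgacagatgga
ATF3 47.5 kb downstream, chr1:212656136-212656182: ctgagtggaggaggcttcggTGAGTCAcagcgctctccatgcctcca
FOSL1 15.5 kb upstream, chr11:65915821-65915931: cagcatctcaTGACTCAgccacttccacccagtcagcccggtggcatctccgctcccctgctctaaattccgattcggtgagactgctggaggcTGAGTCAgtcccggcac
ATF3 49.7 kb upstream, chr1:212558938-212559138: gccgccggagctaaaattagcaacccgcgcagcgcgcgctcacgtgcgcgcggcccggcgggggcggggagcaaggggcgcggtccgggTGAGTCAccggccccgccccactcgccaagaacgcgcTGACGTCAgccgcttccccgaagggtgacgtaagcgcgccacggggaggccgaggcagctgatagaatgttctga

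The regions at or near the genes' own starts carried other known elements, that of JUNB lying further than 1 kb upstream. The CArG box is the core of the serum response element, to which SRF binds, and TGACATCA is a CRE-like element through which JUN and ATF2 dimers act on the JUN promoter. These sequences are given on the strand of the gene, 5′ to 3′, and the capitals mark the CArG box, the AP-1 site, TGACATCA in JUN, or TGACGTCA and TGACGT, the latter in reverse as ACGTCA, in JUND. The promoters are the 250 bases before the RefSeq start in the GRCh38 build, taken from a table that held 8 of the 10 genes and not FOSL1 or BATF3.
FOS CArG box, chr14:75278494-75278543: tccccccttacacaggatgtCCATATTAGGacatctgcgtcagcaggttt
JUNB CArG box, chr19:12789928-12789977: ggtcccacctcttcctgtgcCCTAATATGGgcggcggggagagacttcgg
FOSL1 AP-1 site at the start: ggcgcgggTGAGTCAgaacccag
FOSL2 AP-1 site at the start: cattgtagTGACTCAtctcgggc
JUN promoter, chr1:58784048-58784297: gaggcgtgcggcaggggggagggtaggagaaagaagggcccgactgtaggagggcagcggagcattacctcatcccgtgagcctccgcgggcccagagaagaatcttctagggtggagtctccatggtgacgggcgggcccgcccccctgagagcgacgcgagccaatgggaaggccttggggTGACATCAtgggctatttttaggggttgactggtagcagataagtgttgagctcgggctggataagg
JUND promoter, chr19:18281623-18281872: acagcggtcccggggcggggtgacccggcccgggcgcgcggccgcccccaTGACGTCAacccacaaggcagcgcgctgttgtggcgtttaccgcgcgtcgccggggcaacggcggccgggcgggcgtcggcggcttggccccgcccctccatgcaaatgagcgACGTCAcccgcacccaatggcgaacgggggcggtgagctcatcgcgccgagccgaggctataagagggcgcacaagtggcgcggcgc

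**Figure D1:**
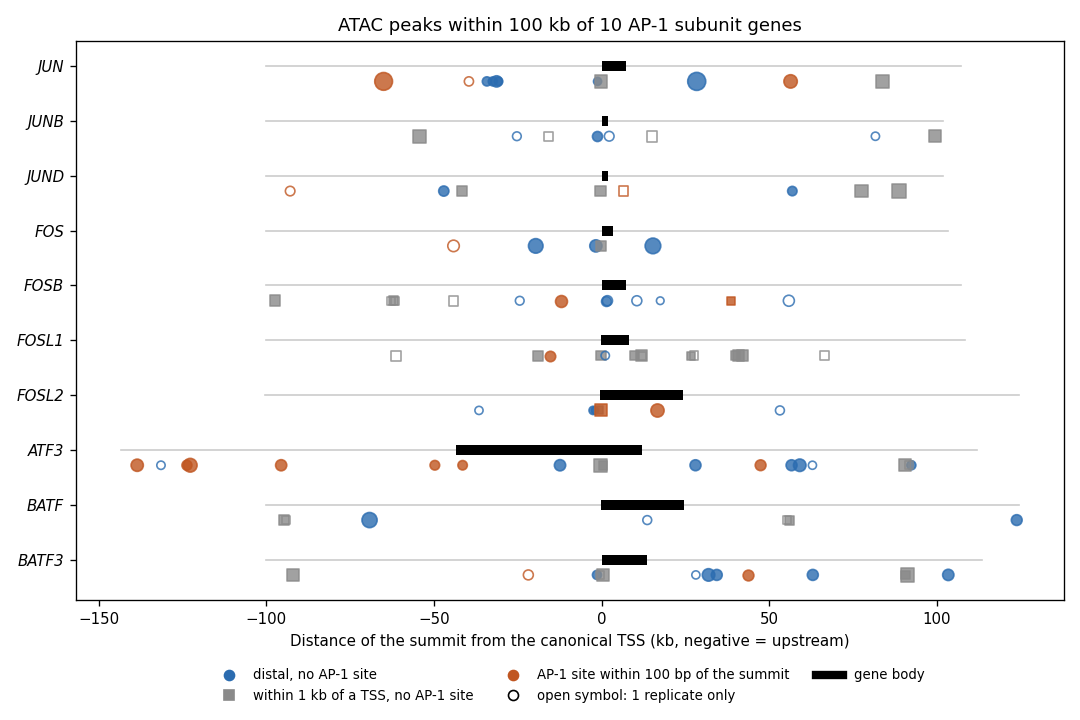
The map places every peak region within 100 kb of the 10 genes by the distance of its summit from the canonical TSS, in kb, with upstream to the left. Circles are distal regions, squares lie within 1 kb of a TSS, symbol area follows the fold enrichment, orange marks an AP-1 site within 100 bp of the summit and open symbols were found in 1 replicate only. ATF3 has 7 filled orange distal circles and JUN has 2.

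Promoter accessibility was read first, as a peak that overlapped the 1 kb to either side of the canonical TSS. Of the 10 genes 7 had such a peak in both replicates, and the same 7 in each list alone. The share over all protein-coding genes was 52.3%, and shares among genes of like CpG content are given below. The genes with a promoter peak were JUN, JUND, FOS, FOSL1, FOSL2, ATF3 and BATF3. JUNB, FOSB and BATF had no peak in this window in either replicate. Fold enrichment here is the peak caller's ratio of summit fragments to background fragments around the peak, with 1 added to both, and the fragment counts were solved back from it.

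Among the Jun genes, JUN, which encodes c-Jun, had the strongest promoter. Its promoter peak reached a fold enrichment of 9.378 in replicate 1 and 9.998 in replicate 2, with 93 and 103 fragments at the summit. The mean fold enrichment was 9.69 ± 0.438 (SD, n = 2). Both summits lay upstream of the TSS, at 68 and 125 bp, and the element TGACATCA lay between the TSS and the summit of replicate 2, centred 64 bp upstream of the TSS. A match to TGACATCA or its reverse was found in 2.61% of all 35116 RefSeq promoter windows of 300 bases.

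JUND, the Jun protein known for steady expression in resting cells, had a promoter peak with 32 fragments in replicate 1 and 39 in replicate 2. Its fold enrichment was 5.72 and 8.44, a mean of 7.08 ± 1.93 (SD, n = 2). The JUND peak held TGACGTCA, the full CRE, centred 197 bp upstream of the TSS and 23 bp from the summit of replicate 2. A full CRE was found in 3.84% of the 10299 shared promoter regions, which had a median width of 569 bp.

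JUNB, which can oppose JUN at shared targets, had its nearest peaks further upstream. In replicate 1 they were centred 1219 and 1496 bp upstream of the TSS with 28 and 31 fragments, and in replicate 2 a peak 1440 bp upstream had 46 fragments. These formed a shared region with a fold enrichment of 5.54 in replicate 1 and 6.60 in replicate 2. The region held the CArG box shown above, 1533 bp upstream of the TSS and 93 bp from the summit. A CArG box was found in 1.76% of all distal shared regions, the class to which this region belongs, and in 1.57% of shared promoter regions. The JUNB region was 672 bp wide, and the median width was 333 bp for distal and 569 bp for promoter regions. A wider region offers more bases for a match. Replicate 2 alone had a further JUNB peak 2296 bp downstream of the TSS, past the end of this gene, with 38 fragments.

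Among the Fos genes, FOS, FOSL1 and FOSL2 had a promoter peak. FOS, the gene of c-Fos, had a promoter peak with 28 fragments in replicate 1 and 29 in replicate 2, and a fold enrichment of 5.02 and 5.32. The mean of 5.17 ± 0.207 (SD, n = 2) was the lowest of the 7 genes. The summit lay 130 bp downstream of the TSS in replicate 1 and 247 bp upstream in replicate 2, so the replicates did not place it at the same spot. The merged region of 666 bp held the CArG box of FOS, centred 309 bp upstream of the TSS and 62 bp from the summit of replicate 2. A second FOS region, 1681 bp upstream, was more accessible than the promoter, with 47 and 53 fragments and a fold enrichment of 8.32 and 9.62.

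FOSL1, which encodes Fra-1, had 31 and 26 fragments at its promoter summit and a fold enrichment of 5.54 and 5.99. FOSL2, which encodes Fra-2, had 70 and 64 fragments and a fold enrichment of 9.13 and 7.43, a mean of 8.28 ± 1.20 (SD, n = 2). The genes for Fra-1 and Fra-2 each held TGACTCA or its reverse within 10 bp of the TSS, centred 2 bp downstream of it in FOSL1 and 7 bp downstream in FOSL2. In FOSL2 the site was 82 bp from the summit. In FOSL1 it was 117 bp from the summit of replicate 2 and so beyond the window of 100 bp that was used for counting. The FOSL1 peak of replicate 2, chr11:65900242-65900702, covered the site, and that of replicate 1, chr11:65900487-65900653, did not. Both FOSL2 peaks covered theirs. TGACTCA anywhere in a shared promoter region was seen in 618 of the 10299.

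FOSB had no peak within 1 kb of its canonical TSS. Its nearest peaks lay in an intron of FOSB itself, 1372 bp downstream of the TSS with 25 fragments in replicate 1 and 1476 bp downstream with 31 fragments in replicate 2. Replicate 2 had a further peak 1769 bp downstream with 26 fragments. With a promoter window of 3 kb, JUNB and FOSB also counted, and 9 of the 10 genes had a peak in both replicates. The share of all protein-coding genes was not counted at 3 kb, and the 52.3% holds for 1 kb only.

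ATF3 had the highest mean promoter fold enrichment of the 7 genes. The values were 11.2 in replicate 1 and 9.99 in replicate 2, with 97 and 88 fragments, and both replicates placed the summit 240 bp upstream of the canonical TSS. The mean was 10.6 ± 0.858 (SD, n = 2). ATF3 and JUN differed in mean fold enrichment by less than 1 unit, and their values overlapped between replicates, so their order was not resolved. In the order of the means from ATF3 through JUN, FOSL2, BATF3, JUND and FOSL1 to FOS, the replicate values of neighbours overlapped except between JUN and FOSL2 and between FOSL1 and FOS. BATF3 had 45 and 36 fragments and a fold enrichment of 7.97 and 8.16, with the summit 389 bp and 485 bp downstream of its TSS. The peak nearest to the TSS of BATF was a replicate 1 peak in a BATF intron, 13.6 kb downstream, with 26 fragments, and replicate 2 had none there.

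**Figure D2:**
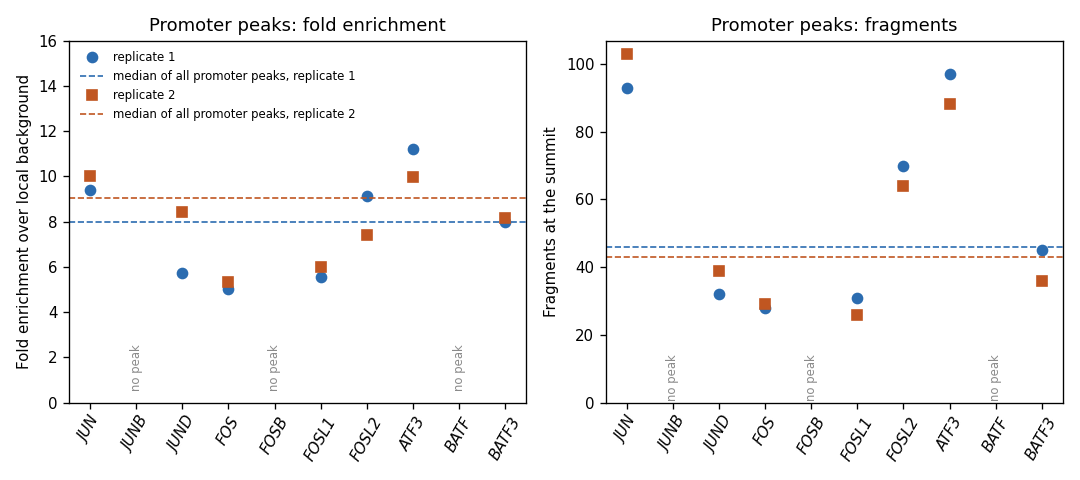
The plots show the fold enrichment (left) and the fragments at the summit (right) of each promoter peak, with circles for replicate 1, squares for replicate 2 and dashed lines for the median of all promoter peaks in each replicate. JUN, FOSL2 and ATF3 lie above the median in fragments in both replicates, and JUND, FOS and FOSL1 lie below it on both scales in both replicates.

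Over all promoter peaks the median was a fold enrichment of 7.97 in replicate 1 and 9.06 in replicate 2, and 46 and 43 fragments. The 2 scales ranked the genes differently where the local background was raised. The JUN promoter was at the 86.5 percentile of promoters in fragments in replicate 1 and at the 61.8 percentile in fold enrichment. In replicate 2 it was at 92.0 and 58.5. The background that the peak caller used around JUN was 1.89 times the commonest one in replicate 1 and 2.76 times in replicate 2, and it was 1.62 and 2.32 times at ATF3 and 1.42 and 2.27 times at FOSL2. A background over 1.5 times the commonest one was seen at 7.22% of promoter peaks in replicate 1 and 17.8% in replicate 2.

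Promoter CpG content was compared, since CpG-rich promoters are accessible in most cells. JUNB had 79 CpG in the 1 kb around its TSS and FOSB had 74, and among the genes of like CpG count (10 equal groups of all genes) 72.0% and 73.8% had a promoter peak in both replicates. These 2 genes therefore lacked a peak at canonical promoters of a kind that mostly had one. FOSB did have a peak in both replicates once the TSS of any transcript was allowed. BATF had 18 CpG, and only 6.45% of the genes in its group had a promoter peak. JUND was the richest with 143 CpG, and it was in the richest group with BATF3. The AP-1 genes with a promoter peak were all in groups where 72.55% to 76.9% of the genes had one. Beside genes of like CpG count, a promoter peak was thus the usual state for them.

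The 10 spans held 74 peaks in replicate 1 and 88 in replicate 2, which merged into 93 regions. Of these 62 were shared, 7 were found only in replicate 1 and 24 only in replicate 2. The shared regions divided into 28 within 1 kb of a TSS, of which 9 belonged to the AP-1 genes and 19 to neighbours, and 34 distal regions. ATF3 and BATF3 lie 65.6 kb apart on chromosome 1, and 9 shared regions fell in both of their spans and were counted once. ATF3 had 15 shared regions, JUN and BATF3 10 each, FOSL1 9, JUND 6, FOSB and FOSL2 5 each, FOS and BATF 4 each, and JUNB 3. The count rested on the replicate for FOSB, with 8 regions in replicate 1 alone and 12 in replicate 2 alone, and for JUNB, with 4 and 8. The median was 5.5 per gene, against 4 over all protein-coding genes.

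The summit of a shared region was taken from the replicate with the higher fold enrichment. An AP-1 site within 100 bp of this summit was found in 12 of the 34 distal regions. This is 35.3%, with a 95% Wilson interval of 21.5% to 52.1% that covers counting error only, and TGACTCA was found in 32.5% of all distal shared regions. At this window the share in the AP-1 loci was near that of the genome. Within 50 bp of the summit 5 of the 34 held the site, or 14.7%, against 22.3% of all distal regions. This narrower share depends on which replicate gave the summit, as described below. Windows of the same length 1 kb to either side of these summits held the site in 2 of 68 cases, or 2.94%, against 3.33% beside all distal regions. Of the 28 regions near a TSS 2 held a site, at FOSL2 and at VASP near FOSB, against 2.79% of all promoter regions.

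The sites were not spread evenly over the genes. ATF3 had 7 distal regions with a site among its 12, JUN had 2 of 8, and FOSB, FOSL1, FOSL2 and BATF3 had 1 each, that of BATF3 being among the 7 of ATF3. JUNB, JUND, FOS and BATF had no shared distal region with a site. Thus 6 of the 10 genes had at least 1, against 34.7% of all protein-coding genes. Outside the spans of ATF3 and BATF3, 5 of 22 distal regions held a site, or 22.7%.

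ATF3 was the extreme case. At least 7 such regions were found for 14 of 20007 genes, which is 0.0700%. The ATF3 gene is annotated over a long stretch, with its canonical start far inside it, and its span was 255 kb. Within 100 kb of the canonical TSS alone 4 of the regions remained, and 0.595% of the genes had as many. From upstream to downstream, the regions with a site lay 138.5, 123.7, 122.7, 95.6, 49.7 and 41.4 kb upstream and 47.5 kb downstream of the canonical TSS. The 4 furthest upstream were nearer to the TSS of NENF, and the downstream one to that of GARIN4.

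**Figure D3:**
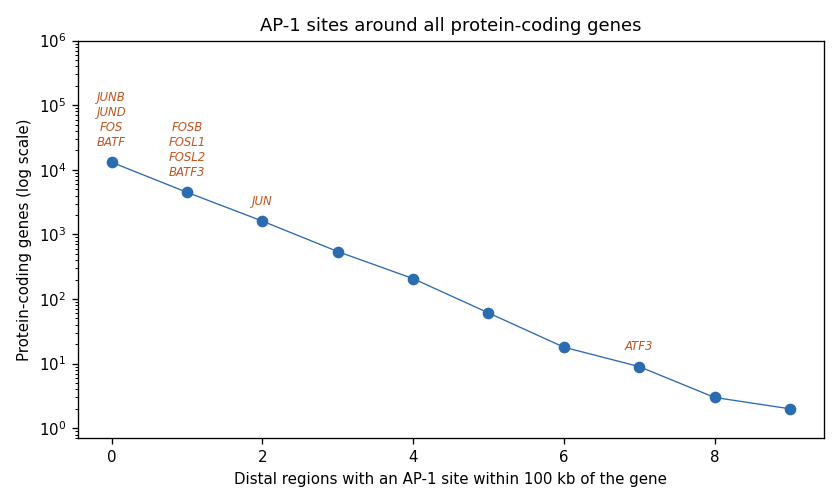
The plot gives the number of protein-coding genes (vertical, log scale) by how many distal shared regions with an AP-1 site lie within 100 kb of the gene (horizontal), with the names of the AP-1 genes at their count. ATF3 stands at 7, JUN at 2, and JUNB, JUND, FOS and BATF at 0.

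The ATF3 region with the highest fold enrichment lay 122.7 kb upstream. It had 59 fragments in replicate 1 and 57 in replicate 2, and a mean fold enrichment of 11.3 ± 1.28 (SD, n = 2). A weaker region with a site, 123.7 kb upstream, had 31 and 29 fragments and also held ACATTCC or its reverse, the site of the TEAD factors. The region 49.7 kb upstream had 30 and 24 fragments. Its AP-1 site was 8 bp from the summit used, that of replicate 2, the closest of all 12 by the summits used. That summit lay 49723 bp upstream of the TSS, and the replicate 1 summit lay 49752 bp upstream, further from the site. This region was the only distal one of these loci with a full CRE, which was found in 0.730% of all distal regions. It lay at the start of an unnamed long non-coding RNA gene. The region 41.4 kb upstream lay inside the annotated ATF3 gene, ahead of the canonical transcript, and had 25 and 26 fragments.

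The JUN locus held the distal regions with the highest mean fold enrichment of the 10 loci. The region 65.0 kb upstream of JUN, inside LINC01135, reached a fold enrichment of 19.8 in replicate 1 and 18.1 in replicate 2, with 113 and 91 fragments, and held an AP-1 site 51 bp from its summit. The second JUN region with a site, 56.4 kb downstream, had a fold enrichment of 8.14 and 13.4. It was nearer to the TSS of MYSM1 than to that of JUN. A cluster of 4 regions between 30.7 and 34.2 kb upstream, also inside LINC01135, had 24 to 56 fragments and no site. A single TSS of another protein-coding gene, MYSM1, lay in the JUN span, and 8 of its 10 shared regions were distal.

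Several of the strongest distal regions had no AP-1 site. For this reason the distal region with the highest mean fold enrichment is shown for 3 of the loci. The plus strand of hg38 is given for 50 bases to either side of the summit. Capitals mark CCGGAAG, bound by ETS factors, in FOS, and ACATTCC, bound by TEAD factors, in BATF, each on either strand. The JUN window has neither within 50 bp, but CCGGAAG or its reverse was found within 100 bp of this JUN summit.
JUN 28.4 kb downstream, chr1:58755592-58755692: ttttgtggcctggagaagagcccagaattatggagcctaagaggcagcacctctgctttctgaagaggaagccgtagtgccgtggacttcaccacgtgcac
FOS 15.3 kb downstream, chr14:75294123-75294223: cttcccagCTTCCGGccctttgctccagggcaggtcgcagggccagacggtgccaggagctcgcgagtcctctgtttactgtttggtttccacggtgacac
BATF 69.2 kb upstream, chr14:75453214-75453314: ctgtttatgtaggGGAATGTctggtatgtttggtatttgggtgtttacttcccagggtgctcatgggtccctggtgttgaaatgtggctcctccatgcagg
The JUN region 28.4 kb downstream had 98 fragments in replicate 1 and 117 in replicate 2 and a mean fold enrichment of 19.5 ± 3.26 (SD, n = 2), at the 98.8 percentile of all distal regions. The BATF region 69.2 kb upstream lay in an intron of JDP2, which encodes another bZIP partner of Jun, and had 105 and 85 fragments. Within 100 bp of the summit the ETS letters were found at 3 of the 34 distal regions, or 8.82%, and at 3.03% of all. The JUN region 28.4 kb downstream was among the 3. In the same window the TEAD letters were found at 2 of the 34, or 5.88%, and at 10.01% of all.

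FOS and FOSL2 had 3 distal regions each, FOSB 2 and FOSL1 1, against a median of 1 over all protein-coding genes. Those of FOS lay at 19.6 kb upstream with 70 and 57 fragments, at 1.68 kb upstream, and at 15.3 kb downstream. No other protein-coding TSS lay within its span. The FOS regions 19.6 kb upstream and 15.3 kb downstream lay at the starts of long non-coding RNA genes, the latter of LINC01220. FOSB had a region with a site 12.1 kb upstream, with 35 and 47 fragments. FOSL2 had a region with a site in its own intron, 16.7 kb downstream of the TSS, with 55 and 63 fragments and a fold enrichment of 9.70 and 11.2.

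FOSL1 had the only shared distal region of these loci with more than 1 AP-1 site. It lay 15.5 kb upstream, had 49 and 40 fragments, and its 2 sites were 84 bp apart from centre to centre, on either side of the summit. Among all distal regions with a site 14.8% had 2 or more. FOSL1 stands among many genes, with 11 other protein-coding start sites in its span, and 8 of its 9 shared regions lay near a TSS.

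In the 12 distal regions with a site the nearest site lay 8 to 79 bp from the summit, with a median of 53.5 bp, against 33 bp over all 4898 such regions. Of the 12, 5 had it within 50 bp, against 71.2% of all. These distances depend on which replicate gave the summit. At the ATF3 region 122.7 kb upstream the summits lay 122663 bp upstream in replicate 1 and 122705 bp in replicate 2. At the FOSB region 12.1 kb upstream they lay at 12093 and 12143 bp. In both the unused replicate 1 summit was nearer to the site. The unused summit was also nearer at ATF3 95.6 kb upstream and 47.5 kb downstream, at FOSL2 and at both JUN regions. It was further from the nearest site at ATF3 138.5, 123.7 and 49.7 kb upstream and at FOSL1. At ATF3 41.4 kb upstream the summits were the same. The shares were not counted from the other summits. The longer median distance and the lower share within 50 bp are therefore not shown to be features of these loci. The median fold enrichment was 8.01 in the regions with a site and 6.62 in the 22 without, and over all distal regions these medians were 7.08 and 6.59.

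**Figure D4:**
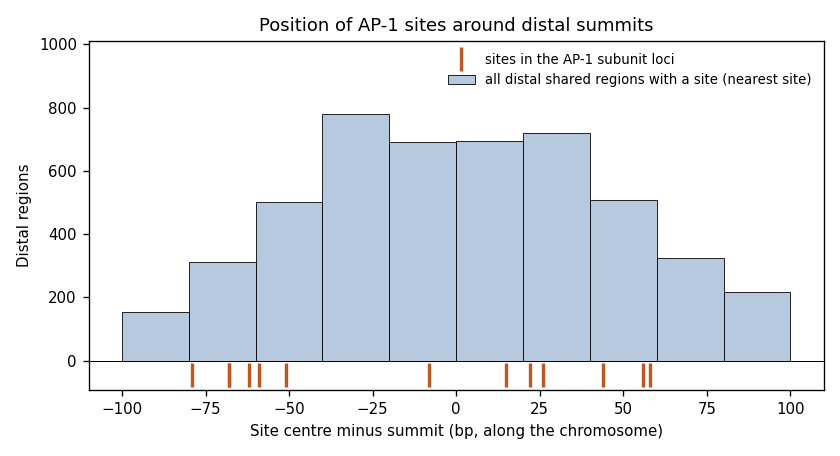
The bars count all distal shared regions with an AP-1 site by the position of the site relative to the summit, in bins of 20 bp, and the orange marks show the 13 sites of the AP-1 loci. The bars are highest within 40 bp of the summit, and the marks run out to 79 bp. Positions are from the summit of the replicate with the higher fold enrichment.

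A further 5 regions with a site were found in only 1 replicate and entered none of these counts. The region 39.6 kb upstream of JUN held 2 sites and had 28 fragments in replicate 1. In replicate 2 the region 44.1 kb upstream of FOS had 34 fragments and the region 21.8 kb upstream of BATF3 had 25. Both remaining regions lay in the JUND span, at the IQCN promoter and 92.9 kb upstream, each with 23 fragments in replicate 2. All 5 were above the lowest summits in the lists.

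The replicates were compared region by region. The ratio of fragments in replicate 2 to those in replicate 1 had a median of 1.07 over the 62 shared regions. Only 1 region differed by 2-fold or more, and 0.451% of all shared regions did. This was the region 15.3 kb downstream of FOS, with 56 fragments in replicate 1 and 125 in replicate 2, a ratio of 2.23, and a fold enrichment of 9.88 and 19.5. Its rank among the FOS regions therefore differed between the replicates, since the region 19.6 kb upstream had the higher value in replicate 1.

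**Figure D5:**
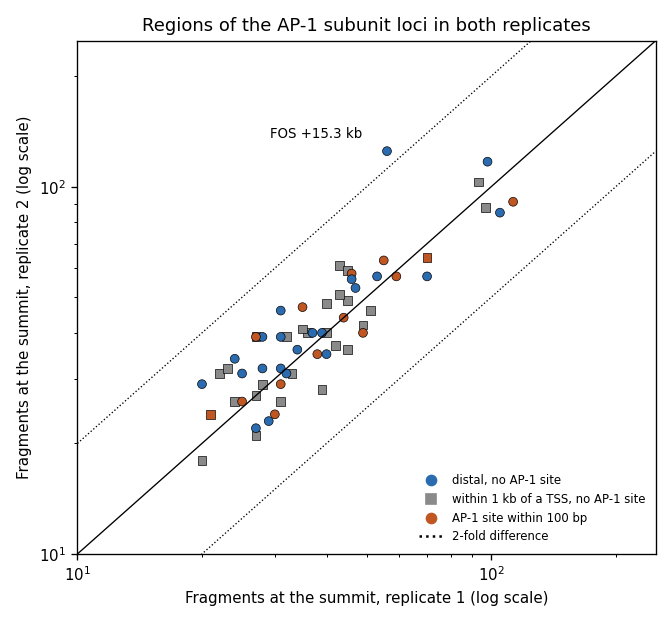
Each point is a shared region of the 10 loci, with the fragments at its summit in replicate 1 (horizontal) and replicate 2 (vertical), both on log scales. All points lie within the dotted lines of a 2-fold difference except the region 15.3 kb downstream of FOS.

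Genes that act with AP-1 were read in the same way, beside the 52.3% of all genes with a promoter peak in both replicates. Of 14 other bZIP partners 12 had one, with ATF2 the highest at a mean fold enrichment of 18.2 ± 2.04 (SD, n = 2) and MAF the lowest at 4.97 ± 0.660, and BATF2 and MAFK had none. Of 12 kinases upstream of AP-1 8 had one, led by MAPK7 at 15.7 ± 0.980. MAPK8 and MAPK9, the genes of the Jun kinases JNK1 and JNK2, had mean values of 12.3 ± 1.27 and 10.8 ± 2.59, whereas MAPK10, the gene of the mostly neuronal JNK3, had no peak. MAPK3 also had none.

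Of the 6 genes for SRF and its partners 4 had a promoter peak in both replicates. SRF itself had a mean fold enrichment of 8.31 ± 0.0330 (SD, n = 2) and ELK1, a ternary complex factor, 13.9 ± 1.74. All 7 MAP kinase phosphatases had one, from DUSP8 at 4.28 ± 0.669 to DUSP10 at 14.7 ± 0.119. Of 12 other immediate early genes 8 had one. EGR2 was the highest of these at 12.3 ± 0.0675 and CCN1 the lowest at 3.59 ± 0.482. EGR3, EGR4 and IER3 had no promoter peak in either replicate, as for JUNB and FOSB, and ZFP36 had a peak in replicate 1 only.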

How the data were processed

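The data were the ATAC-seq peak lists of untreated B2B cells, 1 for each of 2 replicates. The authors mapped reads to hg38 with Bowtie2 2.4.4. They took out duplicates by code of their own and ran MACS2 2.2.7.1 on each replicate with all other reads kept. The submitters' processing notes also name SAMtools 1.13. For each peak the deposited lists give a fold enrichment (a ratio to the local background), a −log10 p-value, a −log10 q-value, a score made from the q-value and a summit. The Tn5 shift, the handling of mitochondrial reads and the q limit are not given in the sources used here.

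Only peaks of the autosomes, X and Y entered, and they were merged by an overlap of at least 1 bp. Fragments at the summit were solved from the deposited fold enrichment and −log10 p as MACS2 defines them and met the −log10 p within 0.01 for 99.7% and 99.8% of the peaks. Tests on simulated data recovered 100% of 2000 summits and of 1000 planted motifs. Gene models were those of GENCODE 44, with gene spans widened by 100 kb. Nearest genes and distal regions refer to canonical TSSs of protein-coding genes. Motifs were searched on both strands. Intervals are Wilson intervals at 95%. Python 3.11.15, numpy 2.4.6, pandas 2.3.3, scipy 1.17.1, pysam 0.24.0 and matplotlib 3.10.9 were used.

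The genes, lists and motifs were chosen with earlier results of these data known. The text names the 10 genes, their promoter regions, the distal regions with an AP-1 site, the strongest distal region of each span, the genes nearest to these, and in each other list the highest and lowest promoters and those without a peak, except 1 gene that is not reported here. A few more of the members of the lists and regions are named after their values were seen. Alternatives tried were peaks at a −log10 q of 5 or more, equal peak numbers, an overlap of 50% of each peak, spans of 10 and 50 kb, promoter windows of 500 bp and 3 kb, any annotated TSS, motif windows of 50 bp and of the whole peak, TGANTCA, and each replicate alone.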

Additional observations from a re-analysis of the deposited data

How the results depend on the processing

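No paired analysis was possible because there was 1 group of 2 replicates and no comparison between groups. Narrower settings mostly moved the counts by their construction, since fewer regions or bases were read. With spans of 10 kb instead of 100 kb the shared regions fell from 62 to 22, the distal ones from 34 to 11, those with an AP-1 site from 12 to 3, and the median per gene from 5.5 to 2. With spans of 50 kb, 7 of 26 distal regions had a site, or 26.9%, and the 3 of 11 at 10 kb were 27.3%. The share over all distal shared regions was 32.5%. With the motif searched within 50 bp of the summit, 5 regions or 14.7% had a site, against 22.3% of all distal regions. That share rests on the summits used and was not counted from those of the other replicate. With the TSS of any transcript 8 genes had a promoter peak, FOSB being added by a start other than its canonical one. The median of their mean fold enrichment was 7.57 instead of 8.07, because of this added gene. The share of all protein-coding genes was not counted at this setting. Each replicate alone gave 7 genes with a promoter peak, 74 to 88 regions, 40 to 48 distal regions, 14 to 15 of these with a site (31.2% to 35.0%), a median of 7 to 9.5 regions per gene, and a median promoter fold enrichment of 7.97 to 8.16. The median of regions per gene in replicate 2 alone, 9.5, was over 1.5 times that of the shared regions. Of the 59 settings tried on the 7 summary values 9 moved the value, which means by over 1.5 times for a count or median of counts, outside the 95% interval for the share, and by more than the median SD between replicates for the fold enrichment. The span from the canonical TSS was chosen after seeing the data. The peak lists hold no summit under 16 and 13 fragments, and weaker signals were not read.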

Other observations

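Long non-coding RNA genes were read around the AP-1 subunit genes. Of the 34 distal regions 12 lay inside such a gene, or 35.3% against 13.4% of all distal regions, and 7 of these 12 were among the 8 distal regions of JUN. In the other spans 5 of 26 did, or 19.2%. A further 5 of the 34 lay within 1 kb of the start of one, which is 14.7% for the starts against 8.58% of all distal regions. The 5 were LINC01135 at JUN, LINC01220 and an unnamed gene at FOS, LINC02773 between ATF3 and BATF3, and an unnamed gene upstream of ATF3. A further 10 lay outside any gene model used, 5 in introns and 2 in the ATF3 gene ahead of its canonical transcript. For 22 of the 34 distal regions the nearest protein-coding TSS was that of an AP-1 subunit gene, and 5 of these held an AP-1 site. A core of the CTCF site was found at 1 distal region, 1.18 kb upstream of JUN, where 37 and 40 fragments lay at the summit, and at 2.08% of all distal regions.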
